A study of Mus musculus with 6 samples.

Results

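Activins, growth and differentiation factors (GDFs), bone morphogenetic proteins (BMPs) and the secreted proteins that hold them in check were followed in hearts lacking the collagen chain gene *Col1a2*. The members were 10 genes given by name: the ligand genes *Inhba*, *Inhbb*, *Mstn*, *Gdf15*, *Bmp4* and *Bmp6*, and the genes of binding proteins *Fst*, *Fstl1*, *Fstl3* and *Grem1*. A probe set carried the symbol of 9 of them, of 19505 genes with a symbol on the array, and each of the 9 had 1 probe set. *Gdf15* is not named in the table of symbols used here and was not analysed. Total RNA came from hearts of 3 *Col1a2-/-* mice (hearts 2767, 2770 and 3200, by their animal numbers) and 3 *Col1a2+/-* mice (hearts 2769, 3201 and 3294), all 2 months old and of the C57/BL6 background. It was measured on Affymetrix Clariom S Mouse arrays, 1 heart per array. The *Col1a2-/-* mice carry a germline knockout-first allele in every cell, in which a large cassette sits inside the gene, and the controls carry 1 such allele, so no heart without the allele was measured. The sample labels give whole heart and the methods give whole ventricles. The labels give no sex, and the methods report equal use of both sexes across the study.

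Activins, myostatin and BMPs are dimeric ligands of the transforming growth factor-β (TGFβ) superfamily. They are cut from precursors by proprotein convertases, bind paired type I and type II receptor kinases, and signal through Smad2 and Smad3 (activins, myostatin) or Smad1, Smad5 and Smad9 (BMPs). Follistatin and FSTL3 trap activins and myostatin outside the cell, and gremlin traps BMPs. In the heart, BMPs act in valve and chamber development, and activins, myostatin and their binding proteins are known from cardiac hypertrophy, fibrosis and muscle wasting.

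The labels were checked by the targeted gene. *Col1a2* had 6.86, 6.84 and 6.48 in *Col1a2-/-* hearts (log2 signal), against 9.47, 9.06 and 9.18 in *Col1a2+/-* hearts, a log2 difference of -2.51 with a standard error of 0.19 (adjusted p = 0.00626 from limma). It was the only 1 of 22206 probe sets that passed an adjusted p under 0.05 (0.0045%), and it missed that threshold without heart 3294 (adjusted p = 0.0948 from limma) or without heart 2770 (adjusted p = 0.0562 from limma). Array medians lay between 6.64 and 6.67. Markers of ventricular myocytes stood above the limit for dim signals in every heart, 8 of 8. For that limit, 1465 probe sets of odorant, pheromone and taste receptors were taken as a guide to signals without much RNA, and 95% of them lay at or under 5.99. *Col1a2+/-* heart 3294 stood apart. The 3 Y-linked genes measured averaged 3.81 there, against 10.56 and 10.89 in the other *Col1a2+/-* hearts. Each of these 3 genes was under the dim limit in heart 3294 alone, and above it in all 3 *Col1a2-/-* and 2 *Col1a2+/-* hearts. The part of sex in the differences below was not tested. The 6 atrial markers, with *Bmp10* among them, averaged 14.14 there, against 9.71 and 9.01. In *Col1a2-/-* hearts the same lists lay between 10.70 and 10.93 and between 10.41 and 11.17. The 7 fat markers measured, 5 with a mean under the dim limit, averaged 8.16 in heart 3294. They averaged 7.24 and 7.15 in the other *Col1a2+/-* hearts and between 6.98 and 7.19 in *Col1a2-/-* hearts. *Ucp1* and *Adipoq* were above the limit in heart 3294 alone, while *Fabp4* was lowest there.

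None of the 9 genes passed a test between *Col1a2-/-* and *Col1a2+/-* hearts with limma. The count was 0 at an adjusted p under 0.05, and 0 higher and 0 lower at the nominal threshold, by which an unadjusted p under 0.05 is meant. Of all probe sets, 2.67% were higher and 2.79% lower at that threshold, 5.45% in all. Student's t-test gave 1 of the 9 without adjustment, *Fst*, and 0 with it. Over the whole array that test gave 1147 of 22206 probe sets without adjustment and 0 with it. *Fst* was also the 1 gene of 9 whose genotypes were fully separated, lower in all *Col1a2-/-* hearts. Full separation was seen in 10.6% of all probe sets, with 5.13% higher and 5.47% lower. The mean signal over the 6 hearts of *Bmp4*, *Bmp6*, *Fstl1*, *Fstl3* and *Inhbb* was above the dim limit, and that of *Inhba*, *Mstn*, *Fst* and *Grem1* was not. The log2 differences of the 5 brighter genes lay between -0.22 and -0.07, all below 0. The other 4 had -0.31 to 0.37, values read from dim signals whose order carries little weight. The median of all 9 was -0.12, against -0.00062 over all probe sets. An array signal under that limit gives only an upper bound on the RNA, so no fold change is given for these 4. In whole tissue, fewer cells of a type and less RNA per cell cannot be told apart.

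**Figure D1:**
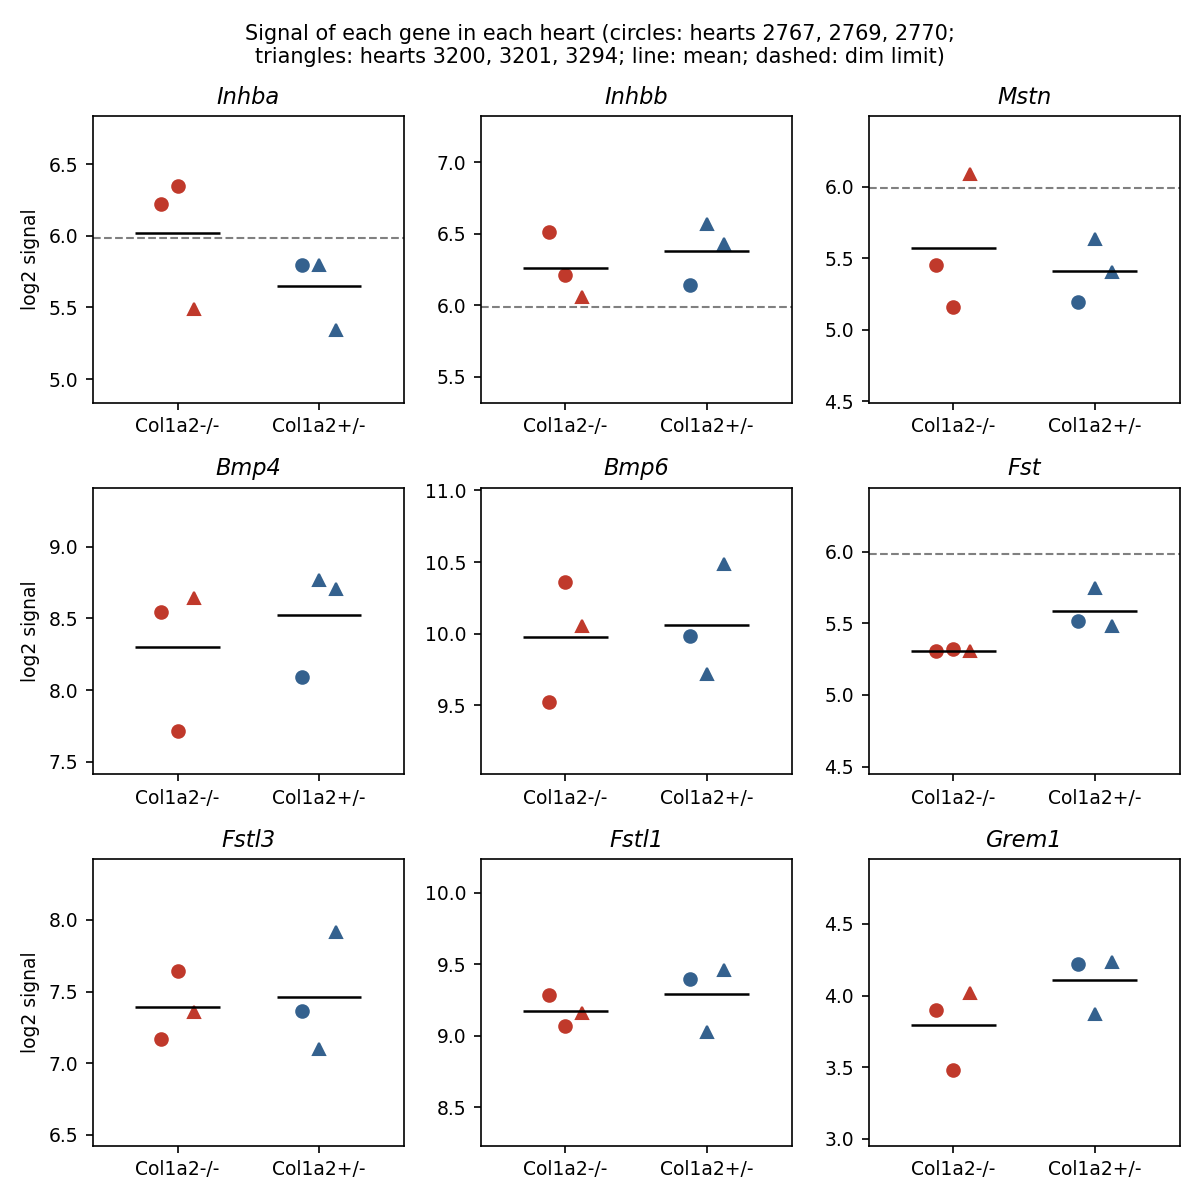
Log2 signal of each of the 9 genes (y axis, each panel spanning 2 log2 units around the gene's mean) in *Col1a2-/-* hearts (red, left) and *Col1a2+/-* hearts (blue, right). Points are single hearts, lines are means of 3 hearts and the dashed line is the dim limit of 5.99. Only the panel of *Fst* shows no overlap between the genotypes, at signals under that limit.

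Of the activin subunits, *Inhba* encodes the βA chain of activin A and *Inhbb* the βB chain of activin B. *Inhba* had 6.22, 6.35 and 5.49 in *Col1a2-/-* hearts 2767, 2770 and 3200 (log2 signal), against 5.80, 5.80 and 5.35 in *Col1a2+/-* hearts 2769, 3201 and 3294. Hearts 2767 and 2770 were above every *Col1a2+/-* heart and above the dim limit, while heart 3200 lay among the *Col1a2+/-* hearts, all of which were under the limit. The log2 difference was 0.37 (95% confidence interval -0.19 to 0.94, adjusted p = 0.937 from limma; exact two-sided permutation p = 0.3, where 3 hearts against 3 allow no p below 0.1). With 4 of the 6 hearts under the limit, no fold change is given. Without *Col1a2-/-* heart 3200 the difference was 0.64 (adjusted p = 0.923 from limma) and passed the nominal threshold, and it was 0.21 without heart 2770 and 0.22 without heart 3294.

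*Inhbb* had 6.51, 6.21 and 6.06 in *Col1a2-/-* hearts (log2 signal), against 6.14, 6.56 and 6.43 in *Col1a2+/-* hearts. The hearts interleaved, every one of them just above the dim limit. Its fold change was 0.922 (95% confidence interval 0.684 to 1.24, adjusted p = 0.961 from limma).

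*Mstn*, which encodes myostatin, a brake on muscle growth best known from skeletal muscle, was dim in 5 of the 6 hearts. Its log2 signals were 5.45, 5.16 and 6.09 in *Col1a2-/-* hearts and 5.20, 5.64 and 5.41 in *Col1a2+/-* hearts. *Col1a2-/-* heart 3200 was the only heart above the limit, and the others of both genotypes mixed. The log2 difference was 0.16 (95% confidence interval -0.41 to 0.72, adjusted p = 0.961 from limma), and without heart 3200 it was -0.10. Of 8 skeletal muscle markers, 7 had a mean under the dim limit as well, and the list averaged between 5.35 and 5.49 in *Col1a2-/-* hearts and between 5.21 and 5.62 in *Col1a2+/-* hearts.

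Both BMP ligand genes among the members gave clear signals. *Bmp4*, a ligand of heart and valve development, had 8.55, 7.72 and 8.64 in *Col1a2-/-* hearts (log2 signal), against 8.09, 8.77 and 8.71 in *Col1a2+/-* hearts. In each genotype 1 heart was low, 2770 among the *Col1a2-/-* hearts and 2769 among the *Col1a2+/-* hearts, and the others lay close together. The fold change was 0.859 (95% confidence interval 0.550 to 1.34, adjusted p = 0.958 from limma). Hearts 2767, 2769 and 2770 form one series of animal numbers and 3200, 3201 and 3294 another, and nothing in the labels ties either to a litter. Within them the log2 difference of *Bmp4* was 0.04 and -0.09, closer to 0 than the pooled -0.22. Pooled, it was 0.073 without heart 2770, -0.13 without heart 3294 and -0.44 without heart 2769.

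*Bmp6*, a ligand made by endothelial cells that is best known for inducing hepcidin in the liver, was above the dim limit in every heart. Its log2 signals were 9.52, 10.36 and 10.05 in *Col1a2-/-* hearts and 9.98, 9.72 and 10.48 in *Col1a2+/-* hearts. The lowest heart was a *Col1a2-/-* heart and the highest was *Col1a2+/-* heart 3294, with the rest in between in mixed order. Its fold change was 0.943 (95% confidence interval 0.623 to 1.43, adjusted p = 0.976 from limma). Taken inside each number series it was -0.04 and -0.05 on the log2 scale, and without heart 3294 it was 0.13. Endothelial markers, 7 of 7 above the dim limit in every heart, averaged between 11.59 and 11.93 in *Col1a2-/-* hearts and between 11.51 and 11.83 in *Col1a2+/-* hearts.

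Among the binding proteins, *Fst* encodes follistatin, which neutralizes activins and binds myostatin. Its log2 signals were 5.31, 5.32 and 5.30 in *Col1a2-/-* hearts and 5.52, 5.75 and 5.48 in *Col1a2+/-* hearts. The *Col1a2-/-* hearts were nearly equal (SD 0.0079) and lay below every *Col1a2+/-* heart, and all 6 hearts were under the dim limit. The log2 difference was -0.27 (95% confidence interval -0.63 to 0.08, adjusted p = 0.922 from limma), with an exact two-sided permutation p of 0.1, the smallest this design gives. It was -0.21 and -0.31 within the series of animal numbers and lay between -0.32 and -0.19 whichever heart was left out. Because every one of these signals is only a bound, the difference is given without a fold change.

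*Fstl3*, whose product is a close relative of follistatin that also binds activins and myostatin, gave a signal above the limit in every heart. It had 7.17, 7.64 and 7.36 in *Col1a2-/-* hearts (log2 signal), against 7.10, 7.37 and 7.92 in *Col1a2+/-* hearts 3201, 2769 and 3294. The genotypes overlapped fully, with a fold change of 0.952 (95% confidence interval 0.658 to 1.38, adjusted p = 0.976 from limma). Heart 3294 was the highest, and without it the log2 difference was 0.16.

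*Fstl1*, a secreted glycoprotein gene of fibroblasts and other mesenchymal cells whose product has been linked to BMP4 antagonism in the lung, had 9.28, 9.07 and 9.16 in *Col1a2-/-* hearts (log2 signal), against 9.39, 9.03 and 9.46 in *Col1a2+/-* hearts. These spanned 0.43 from lowest to highest, the narrowest range of the 9, where the median range over all probe sets was 0.66. Its fold change was 0.918 (95% confidence interval 0.696 to 1.21, adjusted p = 0.959 from limma), and its log2 difference of -0.12 was -0.040 without heart 3294. *Grem1*, whose product gremlin-1 captures BMP2, BMP4 and BMP7, gave only dim signals. Its log2 signals were 3.90, 3.48 and 4.02 in *Col1a2-/-* hearts and 4.22, 3.87 and 4.23 in *Col1a2+/-* hearts, all under the dim limit. The log2 difference was -0.31 (95% confidence interval -0.76 to 0.14, adjusted p = 0.937 from limma), and within the series of animal numbers it was -0.53 and -0.04. For both genes the hearts overlapped. Fibroblast markers, of which 10 of 11 were measured and 10 of 10 were above the dim limit in every heart, averaged between 10.77 and 10.97 in *Col1a2-/-* hearts and between 10.44 and 10.56 in *Col1a2+/-* hearts. At the nominal threshold 5 of these 10 were higher and 0 were lower, where 2.67% and 2.79% of all probe sets were. The 5 were *Col1a1*, *Col3a1*, *Postn*, *Mfap5* and *Cilp*. The log2 differences of *Tcf21* (-0.42), *Dcn* (-0.04), *Dpt* (0.06), *Lum* (0.10) and *Thy1* (0.13) did not pass, so the markers did not move together. The part of fibroblasts in the values of *Fstl1* and *Grem1* was not tested.

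**Figure D2:**
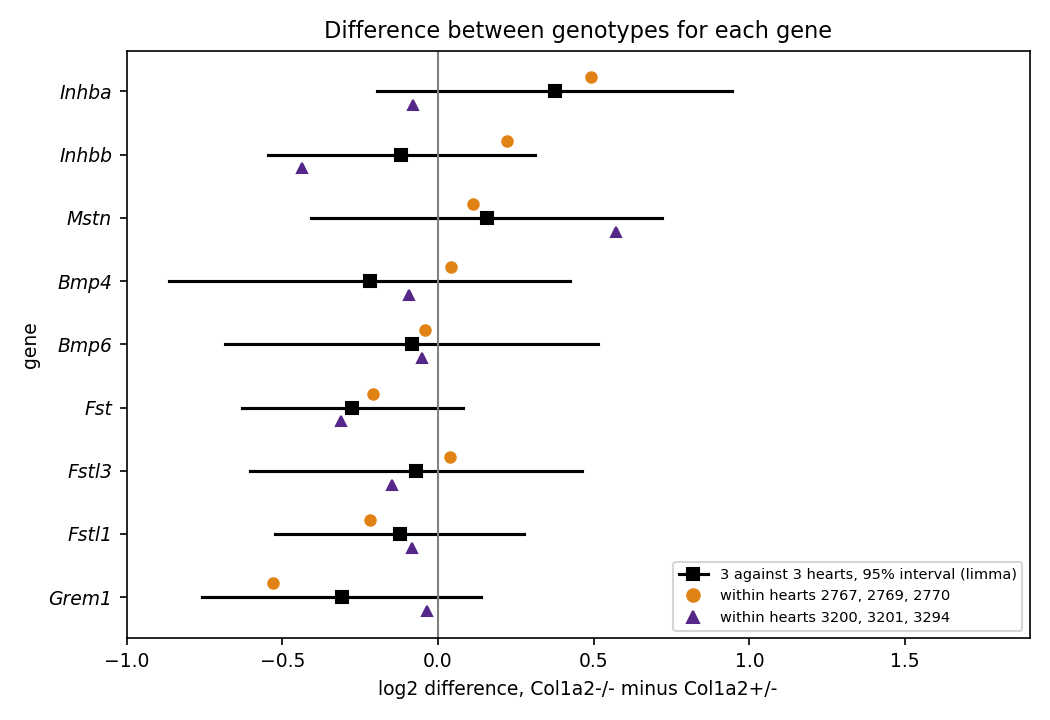
Log2 difference of *Col1a2-/-* minus *Col1a2+/-* hearts (x axis) for each of the 9 genes (y axis). Squares and lines give the difference over 3 against 3 hearts with its 95% confidence interval from limma, circles the difference within hearts 2767, 2769 and 2770, and triangles that within hearts 3200, 3201 and 3294. Every interval holds 0, and the values of the 2 series lie on opposite sides of 0 for *Inhba*, *Inhbb*, *Bmp4* and *Fstl3*.

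The intervals set how large a difference these hearts could have hidden. For the 5 genes above the dim limit, the standard error lay between 0.18 and 0.28 on the log2 scale. The lowest bound among them was a fold change of 0.550 (*Bmp4*) and the highest was 1.43 (*Bmp6*). A p that misses the threshold here does not show equal levels.

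Across the 6 hearts, the 9 genes did not move as a block. The 36 pairs had Pearson correlations between -0.79 (*Inhba* with *Grem1*) and 0.94 (*Bmp6* with *Fstl3*), with a median of -0.09. *Bmp6* and *Fstl3* took nearly the same order of hearts, lowest in *Col1a2-/-* heart 2767 and *Col1a2+/-* heart 3201 and highest in *Col1a2-/-* heart 2770 and *Col1a2+/-* heart 3294. Pearson's r was 0.94 (exact permutation p = 0.0111) and Spearman's rho was 0.89 (exact permutation p = 0.0333), and neither passed after adjustment over the 36 pairs (adjusted p = 0.4 for each, permutation test). Without the 2 hearts farthest from the median of *Bmp6*, 3294 and 2767, r was 0.99 over the other 4. After taking out the genotype means it was 0.94. Both values come from the hearts in which this pair was picked as the highest of 36, so they are no independent support for it. Each series of animal numbers holds 3 hearts, too few for a value within it.

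**Figure D3:**
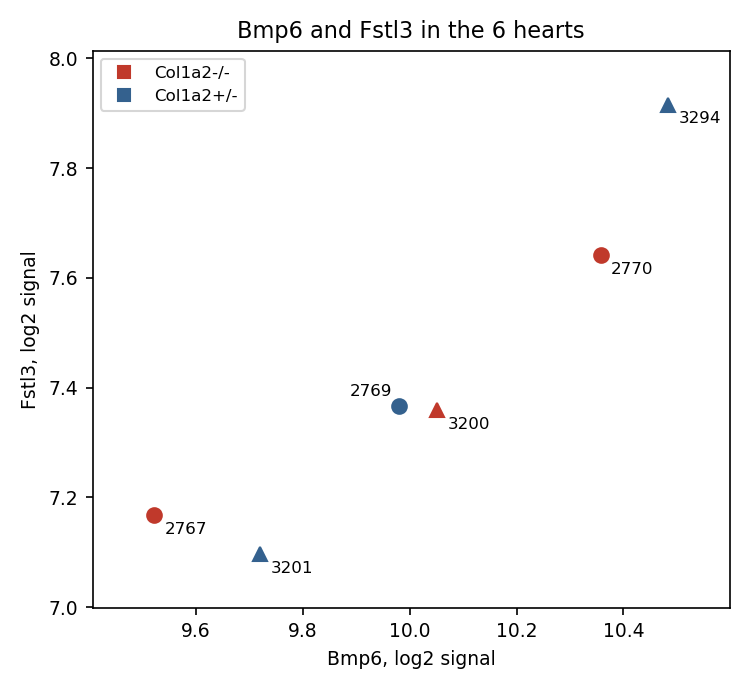
Log2 signal of *Fstl3* (y axis) against that of *Bmp6* (x axis) in the 6 hearts, each marked with its animal number, *Col1a2-/-* hearts in red and *Col1a2+/-* hearts in blue. The hearts of both genotypes lie along one rising line (Pearson's r = 0.94).

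The start regions of *Bmp6* and *Fstl3* are shown because theirs was the closest pair of patterns. Each runs from 250 bases before to 50 bases after the annotated start, from RefSeq on GRCm38.p6, 5′ to 3′ on the strand of the gene (+ for both). The *Bmp6* window is chr13:38345466-38345765 and the *Fstl3* window is chr10:79777024-79777323. Capitals mark CAGAC, the core letters bound by Smads, on either strand.
Bmp6: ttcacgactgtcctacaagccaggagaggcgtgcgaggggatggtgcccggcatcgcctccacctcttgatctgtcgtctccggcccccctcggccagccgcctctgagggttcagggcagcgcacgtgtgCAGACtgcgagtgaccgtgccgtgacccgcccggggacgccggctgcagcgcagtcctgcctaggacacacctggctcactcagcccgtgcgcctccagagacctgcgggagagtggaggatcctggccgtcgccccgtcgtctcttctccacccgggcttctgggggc
Fstl3: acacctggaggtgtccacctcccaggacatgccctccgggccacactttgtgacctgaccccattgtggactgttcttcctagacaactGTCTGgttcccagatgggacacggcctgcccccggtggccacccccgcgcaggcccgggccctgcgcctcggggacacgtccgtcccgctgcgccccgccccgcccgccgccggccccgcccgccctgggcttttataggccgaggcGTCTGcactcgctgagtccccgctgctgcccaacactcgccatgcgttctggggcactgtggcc
CAGAC in either orientation occurs 1 time in the *Bmp6* window and 2 times in the *Fstl3* window. It was found in 4 of the 8 member genes with a promoter entry (*Fst* has none) and in 49.6% of all 32851 promoter windows of 300 bases. The GC box letters GGGCGG, on either strand and sharing no base with CAGAC in these windows, occur 1 time for *Bmp6* and 4 times for *Fstl3*, matches that overlap each other included, and were found in 6 of the 8 windows and in 35.7% of all. A match of letters is a description of the window and not a site of binding.

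The rest of the pathway was read from lists of ligands, receptors, Smads, antagonists, proteases and target genes. Together with genes of the integrated stress response they held 96 measured genes, each counted once. At the nominal threshold 1 of these was higher, 1 was lower and 94 did not pass, and 0 passed an adjusted p under 0.05. The median log2 difference of the 96 was -0.0068, and the genotypes were fully separated for 5 that were higher and 3 that were lower. Over all probe sets, 2.67% were higher and 2.79% lower at that threshold, and 5.13% were separated as higher and 5.47% as lower.

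Of 23 other ligand genes measured, 4 had a mean above the dim limit and 0 passed the nominal threshold. *Bmp5*, a BMP ligand of the same subgroup as *Bmp6*, had 6.65, 7.43 and 7.45 in *Col1a2-/-* hearts (log2 signal), against 7.71, 7.50 and 7.78 in *Col1a2+/-* hearts. The hearts did not overlap, although those of the pair nearest each other, 3200 and 3201, differed little. Its fold change was 0.712 (95% confidence interval 0.492 to 1.03, adjusted p = 0.906 from limma), and the log2 difference was -0.67 and -0.20 within the series of animal numbers. The pooled -0.49 was -0.23 without heart 2767, and it passed the nominal threshold without heart 2770 (-0.62) or heart 3200 (-0.63). *Gdf2* (BMP9, a ligand in blood made by the liver) and *Gdf3* had differences of -0.41 and -0.27 at signals under the dim limit. Without heart 3294 that of *Gdf2* was -0.24, and without heart 2767 it was -0.60 and passed the nominal threshold. *Inha*, the inhibin α subunit, averaged 8.19 in *Col1a2-/-* and 8.22 in *Col1a2+/-* hearts.

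*Bmp10*, a BMP of atrial myocytes in the adult heart, was the exception in spread. Its log2 signals were 3.75, 3.81 and 5.35 in *Col1a2-/-* hearts and 3.53, 4.26 and 13.89 in *Col1a2+/-* hearts. Only heart 3294 was above the dim limit, by far. The difference of -2.93 (adjusted p = 0.937 from limma) was the lowest of all 22206 probe sets, and without heart 3294 it was 0.40. Other atrial genes were also highest in that heart. *Myl7*, which encodes a myosin light chain of atria, had 13.47 there, against 9.74 and 8.07 in the other *Col1a2+/-* hearts, and 12.08, 10.41 and 10.85 in *Col1a2-/-* hearts. *Myl7* thus spread over all hearts, while *Bmp10* was above the limit in heart 3294 alone.

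**Figure D4:**
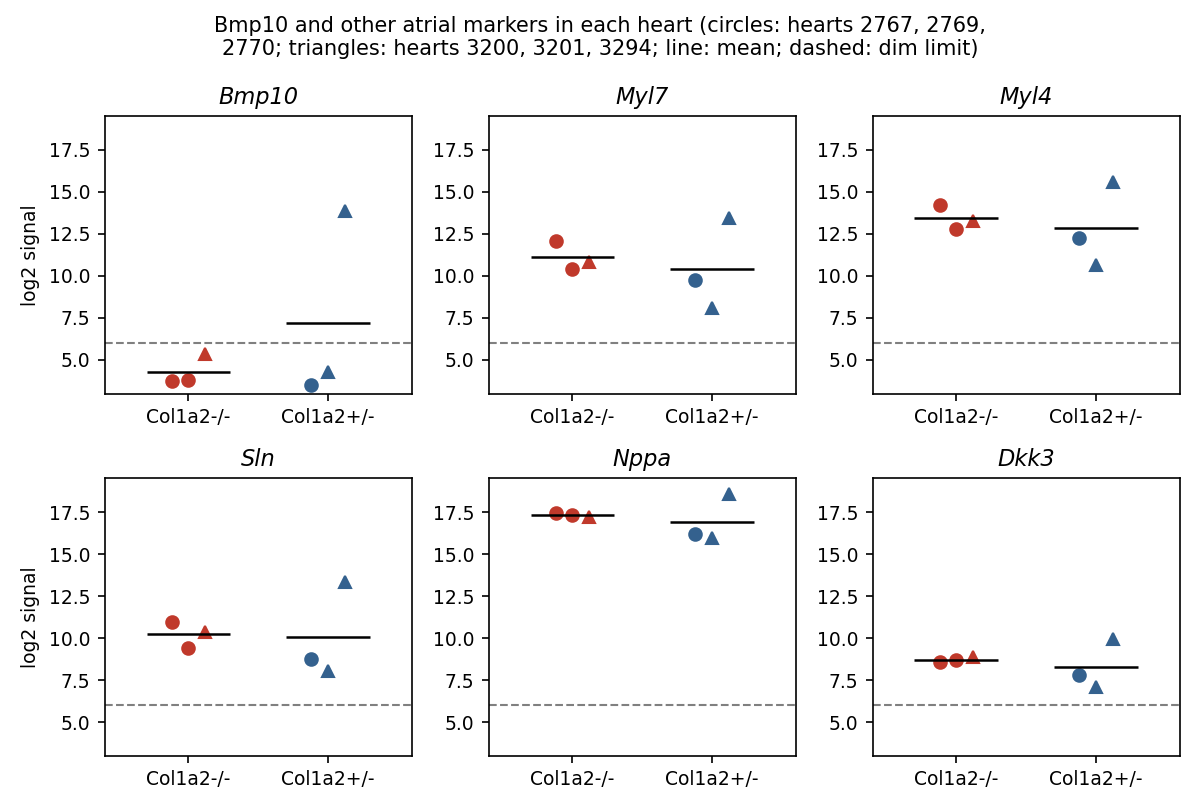
Log2 signal (y axis) of *Bmp10* and 5 other atrial markers in *Col1a2-/-* hearts (red, left) and *Col1a2+/-* hearts (blue, right). Points are single hearts, lines are means of 3 hearts and the dashed line is the dim limit. *Col1a2+/-* heart 3294 is the highest point in every panel, at 13.89 for *Bmp10*.

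Of 19 receptor and co-receptor genes, 1 was higher and 1 was lower at the nominal threshold, where 2.67% and 2.79% of all probe sets were, and 0 passed an adjusted p. *Tgfbr3*, the gene of betaglycan, a co-receptor that presents TGFβ and inhibin, had 11.50, 11.40 and 11.13 in *Col1a2-/-* hearts (log2 signal), against 11.56, 11.73 and 11.99 in *Col1a2+/-* hearts. Its fold change was 0.749 (95% confidence interval 0.562 to 0.999, adjusted p = 0.906 from limma), with hearts that did not overlap. *Amhr2*, the receptor gene of anti-Müllerian hormone, had a difference of 0.49 (adjusted p = 0.879 from limma) at signals under the dim limit in all hearts. Neither gene passed the nominal threshold without heart 3201, 2770 or 3200. *Tgfbr3* also did not pass it without heart 3294, with Student's t-test, with arrayWeights or with a block for the animal-number series. *Acvrl1*, the endothelial receptor ALK1 that binds BMP9 and BMP10, gave 9.17, 9.25 and 9.53 in *Col1a2-/-* hearts and 9.52, 9.69 and 9.62 in *Col1a2+/-* hearts, which overlapped. Of the 19, 13 had a mean above the dim limit. *Hjv*, a BMP co-receptor of skeletal and heart muscle, averaged 14.44 in *Col1a2-/-* and 14.57 in *Col1a2+/-* hearts.

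Of 8 Smad genes, 7 were above the dim limit and 0 passed the nominal threshold, with differences between -0.30 (*Smad3*) and 0.24 (*Smad6*). The value of *Smad3* was -0.073 without heart 3294, -0.54 without heart 2769 and -0.098 with a block for the animal-number series. *Smad2* and *Smad6*, a transducer of activin signals and an inhibitor of BMP signals, both had a difference of 0.24, while *Smad4*, the common partner of the receptor-regulated Smads, had 0.0053. Of 17 other secreted antagonists, 0 passed as well. *Chrdl1*, whose product binds BMP4, had 6.78, 6.43 and 6.76 in *Col1a2-/-* hearts (log2 signal), against 6.42, 6.34 and 5.77 in *Col1a2+/-* hearts. Hearts 2770 and 2769 lay next to each other, and the lowest was heart 3294. Its fold change was 1.40 (95% confidence interval 0.999 to 1.95, adjusted p = 0.906 from limma). The log2 difference of 0.48 was 0.28 without heart 3294. *Chrdl1* passed the nominal threshold with quantile normalization, with the filter on dim probe sets, with 1 row per gene, without heart 2769 and without heart 2770. *Sost* (difference 0.32) and *Nog*, the noggin gene (-0.33), were under the dim limit and passed the nominal threshold without heart 2770 (0.43 and -0.48), and *Twsg1*, a chordin partner, averaged 11.94 in *Col1a2-/-* and 11.90 in *Col1a2+/-* hearts.

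The 7 proteases that cut the precursors or the antagonists also gave 0 at the nominal threshold. *Pcsk6*, a convertase also known as PACE4, had 10.35, 10.33 and 10.33 in *Col1a2-/-* hearts (log2 signal), against 10.30, 10.73 and 11.39 in *Col1a2+/-* hearts. Heart 3294 was again the highest, and the log2 difference of -0.47 (adjusted p = 0.920 from limma) split into 0.04 among hearts 2767, 2769 and 2770 and -0.73 among hearts 3200, 3201 and 3294. Without heart 3294 it was -0.18, and without heart 2769 it was -0.72 and passed the nominal threshold. *Furin* and *Pcsk5* had differences of -0.22 and 0.23, and of -0.058 and 0.10 without heart 3294.

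Genes that BMP signals are known to induce showed no shift that passed. Of 12, 0 passed the nominal threshold and the median log2 difference was -0.0068, with 0.17 and -0.12 within the series of animal numbers. *Id1*, the best known of them, had 12.96, 13.01 and 12.59 in *Col1a2-/-* hearts (log2 signal), against 12.74, 12.84 and 13.17 in *Col1a2+/-* hearts, which overlapped. *Id2* and *Id3* had differences of -0.20 and 0.22. The integrated stress response, a program that raises *Gdf15* in many tissues, was represented by 14 genes, of which 0 passed, with a median of 0.05. *Asns* and *Psat1*, enzymes of amino acid synthesis, had differences of 0.35 and 0.33 with hearts that did not overlap (adjusted p = 0.906 and 0.912 from limma). *Asns* passed the nominal threshold with the filter on dim probe sets and with Student's t-test. *Atf4*, the transcription factor of this response, averaged 12.05 in *Col1a2-/-* and 12.02 in *Col1a2+/-* hearts. *Ddit4* had 7.85, 8.78 and 11.24 in *Col1a2-/-* hearts 2767, 2770 and 3200 (log2 signal). It had 8.55, 11.22 and 11.57 in *Col1a2+/-* hearts 2769, 3201 and 3294. The hearts of each genotype parted by animal-number series, which hold the genotypes in unequal numbers. The pooled log2 difference was -1.16, against -0.23 and -0.16 within the series. Pooled, it was -0.59 without heart 3294 and -0.19 with a block for the animal-number series. It passed the nominal threshold without heart 2769 (-2.11) or heart 3200 (-2.13).

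**Figure D5:**
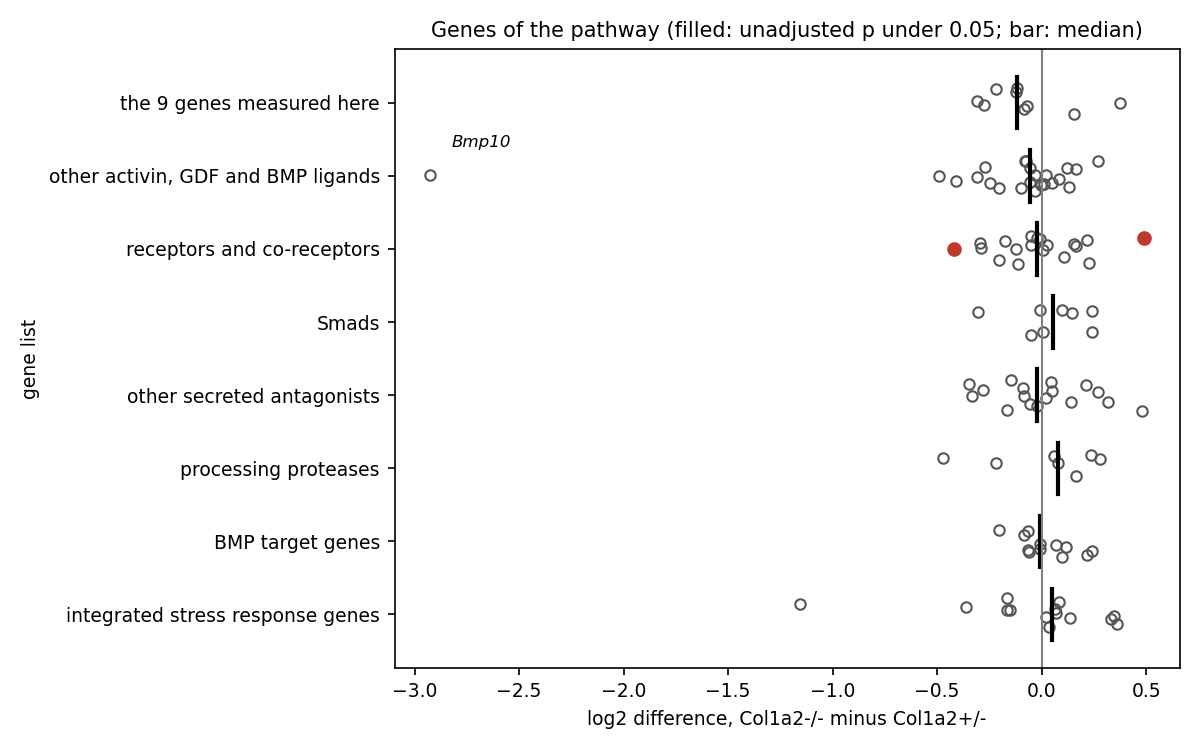
Log2 difference of *Col1a2-/-* minus *Col1a2+/-* hearts (x axis) for each gene of the lists named on the y axis. Each point is a gene, filled red where the unadjusted p from limma was under 0.05, and bars are medians. The 2 filled points are *Amhr2* and *Tgfbr3*, and *Bmp10* stands alone at -2.93.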

How the data were processed

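Log2 signals per probe set, deposited by the authors as a table of 6 arrays, were analysed without further normalization. Affymetrix Expression Console is the tool in the submitters' processing notes, while Transcriptome Analysis Console is the one in the study's methods. Versions and the normalization are not given in the sources used here. Of 28846 entries, 6640 control probe sets were left out. Symbols came from a platform annotation, in which 19572 probe sets have 1 symbol, 0 have several and 2634 have none. Genotypes came from sample titles. They were compared with lmFit and eBayes (limma 3.58.1, R 4.3.3) as *Col1a2-/-* minus *Col1a2+/-*, no covariate being fitted, which left 4 residual degrees of freedom, with Benjamini-Hochberg adjustment over all 22206 probe sets. The number of arrays limits the precision, and p-values measure only the spread between these hearts. Exact permutation tests went through every arrangement of the hearts in Python 3.11.15. Ranks and the adjustment over pairs used scipy 1.17.1, and figures matplotlib 3.10.9. The code was tested on simulated data. Members and gene lists were chosen with earlier results of these data known. From each pathway list, up to 3 genes with the smallest p and the brightest gene were named, with markers where their list stands beside a result. Alternatives were quantile normalization, median centring, a filter on dim probe sets, arrayWeights and Student's t-test. Further alternatives were a robust prior with a trend, a block for the animal-number series, 1 row per gene and leaving out each heart.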

Additional observations from a re-analysis of the deposited data

How the results depend on the processing

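None of the 9 genes passed an adjusted p under 0.05 under any alternative, leaving out each heart included (lowest adjusted p 0.843). The count at an unadjusted p under 0.05 was 1 with Student's t-test (*Fst*), where 1147 of all 22206 probe sets passed. It was 0 to 1 with each heart left out. The 1 was *Inhba* without *Col1a2-/-* heart 3200, where 1172 of all 22206 probe sets passed. The median of the 9 lay between -0.19 and -0.04 with each heart left out. *Inhba*, *Inhbb*, *Fst*, *Fstl1* and *Grem1* kept their direction in every alternative run. Over all alternatives, each pathway list held 0 to 2 genes per direction at an unadjusted p under 0.05. Over the whole array, counts in either direction ran from 698 of 12777 (filter on dim probe sets) to 1425 of 22206 (without heart 2769). With arrayWeights *Bmp6* was at 0.0062 and *Fstl3* at 0.010, and with quantile normalization *Smad4* was at -0.0032. With each heart left out, the log2 difference changed sign for *Mstn* (-0.10 to 0.36), *Bmp4* (-0.44 to 0.073), *Bmp6* (-0.27 to 0.14), *Fstl3* (-0.25 to 0.16), *Inha* (-0.26 to 0.17), *Smad4* (-0.12 to 0.14), *Id2* (-0.44 to 0.046), *Id1* (-0.15 to 0.071), *Atf4* (-0.11 to 0.21) and *Bmp10* (-4.77 to 0.40); the cause was not tested. The difference of *Col1a2* was -2.51 with Student's t-test (adjusted p = 0.546) and -2.60 to -2.39 with each heart left out. *Col1a2* missed the threshold without *Col1a2+/-* heart 3294 (adjusted p = 0.0948 from limma) and without *Col1a2-/-* heart 2770 (adjusted p = 0.0562 from limma). The filter on dim probe sets gave no value for *Inhba*, *Mstn*, *Fst* and *Grem1*. No paired analysis was possible because the animal numbers of the genotypes are not shared. With 3 hearts per genotype, smaller differences than the intervals given above could not be resolved.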
